A study of Mus musculus with 2 samples.

Results

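Axin2 and 9 other genes of the β-catenin destruction complex and its feedback inhibitors were followed in primary mouse myoblasts with and without Wnt3a. The 10 genes are Axin1, Axin2, Apc, Gsk3a, Gsk3b, Csnk1a1, Ctnnb1, Btrc, Nkd1 and Nkd2, and all array features (probe sets) that the platform annotation assigns to 1 of them and to no other gene were taken. These were 36 of 34945 probe sets with 1 annotated gene, and 10 of 18193 genes. The cells were muscle precursors from newborn mice of the Sv129 strain, grown on wells coated with laminin and collagen. The Wnt3a group spent 4 hours in DMEM with 2% horse serum plus 100 ng/ml of Wnt3a, and the control group the same 4 hours in DMEM with 2% horse serum alone. Each group had 1 array, so every value is 1 measurement, no difference has a replicate check or a test, and the number of arrays limits the precision. The labels used here give neither the number of mice nor the number of cultures behind an array, and no mutant allele or transgene.

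The destruction complex keeps β-catenin scarce in cells that receive no Wnt signal. The scaffolds Axin and Apc hold β-catenin next to casein kinase 1α and glycogen synthase kinase 3, which phosphorylate its amino terminus in turn, and the F-box protein β-TrCP then recognises the phosphorylated stretch and has it ubiquitinated and degraded. Wnt ligands such as Wnt3a draw Axin to Frizzled and LRP receptors, which lets β-catenin accumulate and activate genes together with TCF and LEF factors. This control acts on the β-catenin protein, which an RNA array does not measure. Axin2 is itself a widely used target gene of the pathway and feeds back on it, and the Naked cuticle genes Nkd1 and Nkd2 encode inhibitors that bind Dishevelled.

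Levels are given as deposited intensities, or as log2(intensity + 1), called the log2 scale here. A difference is the log2 value with Wnt3a minus that of the control, so a positive one means brighter with Wnt3a. Probe sets and genes with a log2 value of 6 or more (intensity 63) on either array were counted as measured, and this value, called the floor, is a set brightness rather than a limit of detection. Each gene was represented by its brightest probe set, which gave 11397 measured genes. Of these, 29 were at least 2-fold higher with Wnt3a and 7 at least 2-fold lower. Under scaling on the spike-in controls, by which 11751 genes were measured, 49 were higher and 1 lower. Shares given below under this scaling are over the 11397 genes. All 42 spike-in probe sets were dimmer on the Wnt3a array, with a median difference of -0.19, so that scaling on them adds 0.19 to every difference below. All 8 myoblast markers were measured. Myod1, the myogenic determination factor, was at 13.28 with Wnt3a and 13.41 in the control. Pax7, the satellite cell factor, was at 11.08 with Wnt3a and 11.20 in the control, and Myf5, a related muscle factor, at 12.45 with Wnt3a and 11.96 in the control. Of the 8, only Vcam1, an adhesion gene, differed by over 1.5-fold as deposited, at 9.97 with Wnt3a and 10.60 in the control. Under spike-in scaling Vcam1 fell under 1.5-fold, and Myf5, higher with Wnt3a, was the only one of the 8 past it. All 7 markers of differentiated muscle were measured too, with the largest difference as deposited at Myog, the factor of entry into differentiation (-0.50). Of the markers of other cell types that had a probe set, 1 of 6 for fibroblasts, 3 of 6 for leukocytes, 1 of 5 for endothelium, 2 of 3 for Schwann cells and glia and 2 of 5 for smooth muscle were measured. Of 5 lung epithelium markers 3 were measured, and the summed intensity of all 5 was 296 with Wnt3a and 604 in the control. Most of that gap came from Scgb1a1, an airway secretory protein gene, with an intensity of 61.3 with Wnt3a and 334 in the control. The surfactant gene Sftpc had 36.8 with Wnt3a and 78.3 in the control, while Sftpb had 140.1 with Wnt3a and 131 in the control. Scgb1a1 had the lowest difference of all measured genes (-2.43). It and Sftpc were 2 of the 7 genes at least 2-fold lower as deposited, and both lay below the floor with Wnt3a. Against the floor, as deposited, Scgb1a1 was at least 5.23-fold lower, but Sftpc only at least 1.24-fold lower. Whether lung epithelial cells were present, and the part of such cells in the values below, was not tested. In RNA from whole cultures, fewer cells of a type and less RNA per cell cannot be told apart.

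Axin2 was the only one of the 10 genes that differed by 2-fold or more, and it was far higher with Wnt3a. On its brightest probe set (1436845_at) it had an intensity of 1219.9 with Wnt3a and 98.7 in the control, which is 10.25 and 6.64 on the log2 scale. Both arrays lay above the floor, and the difference of 3.61 corresponds to a 12.2-fold higher value with Wnt3a. Among 11397 measured genes this difference was number 2 by size. The second Axin2 probe set (1421341_at) had 64.6 with Wnt3a and 18.9 in the control, or 6.03 and 4.31 on the log2 scale. Its measured difference was 1.72, in the same direction, but the control lay below the floor and the Wnt3a array barely above it, so against the floor it is at least 1.02-fold higher. The 2 probe sets stem from different source sequences of the gene. They read the same RNA samples and are no replicates of the treatment. Both were brighter with Wnt3a, and the size is given by the brightest alone, since the other has only a lower bound.

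**Figure D1:**
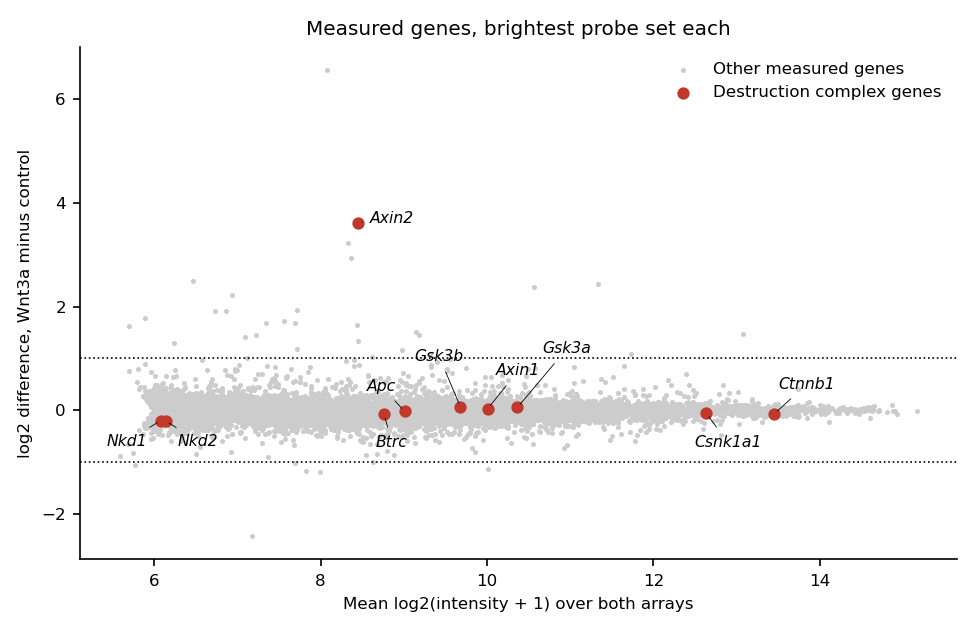
Each point is 1 of 11397 measured genes, with the mean log2(intensity + 1) of both arrays on the horizontal axis and the log2 difference, Wnt3a minus control, on the vertical axis; dotted lines mark 2-fold. Axin2 stands at 3.61, and the other 9 red points lie between -0.21 and 0.064, inside the grey cloud of all genes (under spike-in scaling all points move up by 0.19).

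The 1 of 10 members at least 2-fold higher compares with 0.254% of all measured genes, and 0 members at least 2-fold lower with 0.0614%. Axin2 was also the only member past 1.5-fold, where the shares of all measured genes were 0.886% higher and 0.342% lower. The measured genes with the nearest differences to that of Axin2, over these 2 arrays, were Bhlhe40, Car2 and Ppargc1a. Bhlhe40, a circadian and hypoxia-related repressor, had 982 with Wnt3a and 104 in the control, a difference of 3.23 that is 0.38 away from that of Axin2. Car2, a carbonic anhydrase, had 912 with Wnt3a and 118 in the control, a difference of 2.94. Ppargc1a, the coactivator PGC-1α, had 208 with Wnt3a and 36.3 in the control, which was below the floor, so it is at least 3.27-fold higher (measured difference 2.49). Nearness in 1 difference between 2 arrays is a description of these arrays only.

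The stretch before the start of Axin2 is shown because Axin2 alone among the members differed by 2-fold or more, and the core of the TCF and LEF binding sequence, CTTTGA on either strand, was looked for in it. Sequences are RefSeq's on GRCm38.p6, taken from windows of 250 bases before to 50 after each start, and 6 of the 10 genes matched, with 7 windows. The Axin2 window (chr11:108920099-108920398, plus strand) held no CTTTGA, and 70.0% of its bases were G or C. It held GGGCGG, the GC-box core, on either strand at 2 places, both before the start and in capitals here, in the 250 bases chr11:108920099-108920348.
Axin2: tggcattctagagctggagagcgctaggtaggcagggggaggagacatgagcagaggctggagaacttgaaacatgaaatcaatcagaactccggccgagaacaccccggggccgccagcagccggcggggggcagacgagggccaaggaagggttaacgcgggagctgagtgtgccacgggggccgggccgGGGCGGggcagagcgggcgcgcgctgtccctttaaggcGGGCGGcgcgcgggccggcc
Of the 7 member windows, 2 held CTTTGA, those of the kinase genes Gsk3a and Gsk3b, compared with 16% of 32851 windows of the same length. Their surroundings follow for comparison, with the motif in capitals as its reverse complement. That of Gsk3a is chr7:25237983-25238028 on the minus strand, and that of Gsk3b is chr16:38088904-38088949 on the plus strand.
Gsk3a: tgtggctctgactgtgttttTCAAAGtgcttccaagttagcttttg
Gsk3b: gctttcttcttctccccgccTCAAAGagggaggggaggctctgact
The GC-box core stood in 4 of the 7 windows, among them both windows of Ctnnb1, which overlap, and in 35.7% of all windows. The windows of Nkd1 and Nkd2 held neither motif. A match is a description of letters in a window, and its absence says nothing about sites elsewhere.

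The other scaffolds of the complex had nearly the same values on both arrays. Axin1, the constitutive paralogue of Axin2, had an intensity of 1041 with Wnt3a and 1019.8 in the control on its brightest probe set, a difference of 0.030. Its second probe set had 215 with Wnt3a and 192 in the control (0.16). Both Axin1 differences are positive and small beside the 3.61 of the brightest Axin2 probe set. Apc, the adenomatous polyposis coli scaffold, had 509.9 with Wnt3a and 519 in the control on its brightest probe set, a difference of -0.025 that becomes 0.16 under spike-in scaling. Its other measured probe sets had 214 with Wnt3a and 251 in the control (-0.23), and 124 with Wnt3a and 133 in the control (-0.099). On the remaining one, below the floor on both arrays, the difference was -0.26. All 4 Apc probe sets were thus dimmer on the Wnt3a array as deposited, by at most 1.17-fold among the measured ones, and with 0.19 added the sign of the -0.025 and -0.099 turns.

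**Figure D2:**
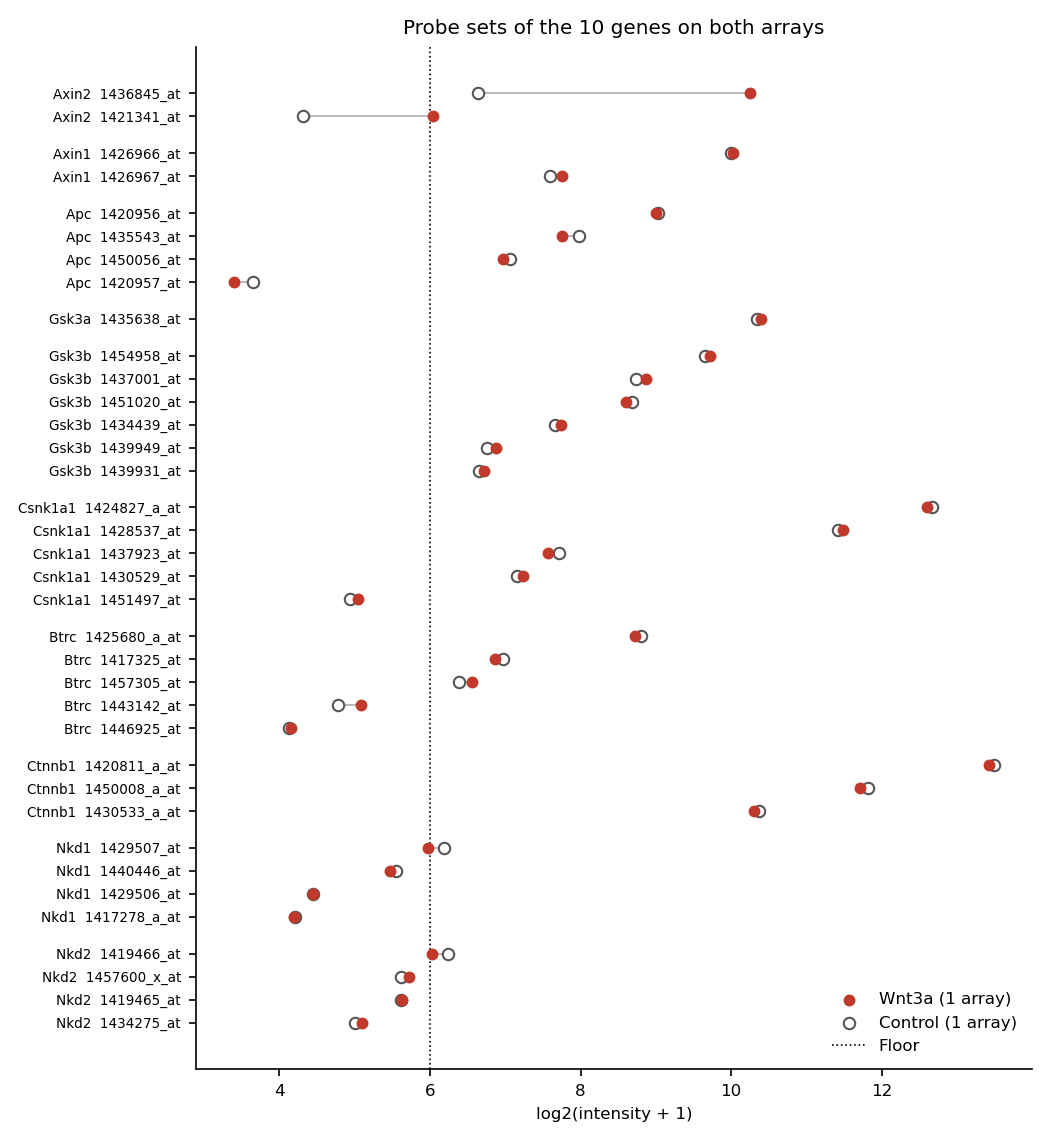
Each row is 1 of the 36 probe sets, with log2(intensity + 1) on the horizontal axis, filled red points for the Wnt3a array, open points for the control array and a dotted line at the floor of 6. The points of both arrays nearly coincide in all rows but the 2 of Axin2, where Wnt3a lies to the right.

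The kinases that phosphorylate β-catenin showed small differences of mixed sign. Gsk3a, which encodes glycogen synthase kinase 3α, had 1343 with Wnt3a and 1295 in the control on its 1 probe set, a difference of 0.052. Gsk3b, which encodes the β form, had 838 with Wnt3a and 802 in the control on its brightest probe set, a difference of 0.064. All 6 Gsk3b probe sets were measured, 5 positive and 1 negative, from -0.071 to 0.13, with an SD of 0.072, and under spike-in scaling the negative one turns positive. Csnk1a1, the casein kinase 1α that phosphorylates β-catenin first, had 6227.5 with Wnt3a and 6511 in the control on its brightest probe set, a difference of -0.064 that becomes 0.13 under spike-in scaling. Its next probe set had 2869.8 with Wnt3a and 2737 in the control, a difference of 0.069. The 4 measured Csnk1a1 probe sets divided evenly, 2 positive and 2 negative, from -0.15 to 0.074. As deposited, probe sets of the same kinase thus disagreed in sign, and these differences were 1.11-fold or less in size. Under spike-in scaling all 12 probe sets of the 3 kinase genes were positive, from 0.040 to 0.32, or up to 1.24-fold. With that scaling 90.1% of all measured genes were positive too, so the shared sign is not particular to the kinases.

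Ctnnb1 and Btrc, the substrate of the complex and its ubiquitin ligase adaptor, also differed little. Ctnnb1, which encodes β-catenin, had 10936.5 with Wnt3a and 11488 in the control on its brightest probe set, a difference of -0.071. Its other probe sets had 3353 with Wnt3a and 3606 in the control (-0.10), and 1265 with Wnt3a and 1326 in the control (-0.068). The 3 Ctnnb1 differences lay close together, with an SD of 0.020, and all 3 were negative as deposited. Under spike-in scaling all 3 were positive, as were 90.1% of all measured genes, and the brightest gave 0.12. Btrc, which encodes β-TrCP, had 423 with Wnt3a and 445 in the control on its brightest probe set, a difference of -0.075 that becomes 0.11 under spike-in scaling. The 3 measured Btrc probe sets ran from -0.11 to 0.17, with a mean of -0.0027. The mean over all 5, including those below the floor on both arrays, was 0.065, so no direction held for this gene. On the array, the RNA of β-catenin therefore stood at 1.05-fold lower as deposited, a size that 1 array per group cannot tell from no difference.

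Nkd1 and Nkd2, the feedback inhibitors, lay at the floor and were not higher with Wnt3a on their brightest probe sets. Nkd1 had 62.1 with Wnt3a and 71.6 in the control on its brightest probe set, a difference of -0.20. The Wnt3a value was just below the floor, and against the floor Nkd1 was 1.13-fold lower as deposited, which spike-in scaling does not keep. Its other 3 probe sets were below the floor on both arrays, from -0.069 to 0, and 1 of them had the identical intensity of 20.8 on both. Nkd2 had 64.6 with Wnt3a and 74.7 in the control on its brightest probe set, a difference of -0.21. The other 3 Nkd2 probe sets were below the floor on both arrays and positive, from 0.015 to 0.099. Under spike-in scaling the brightest probe sets gave -0.013 for Nkd1 and -0.018 for Nkd2. At this brightness a difference between the arrays in either Nkd gene was not detectable with 1 array per group.

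**Figure D3:**
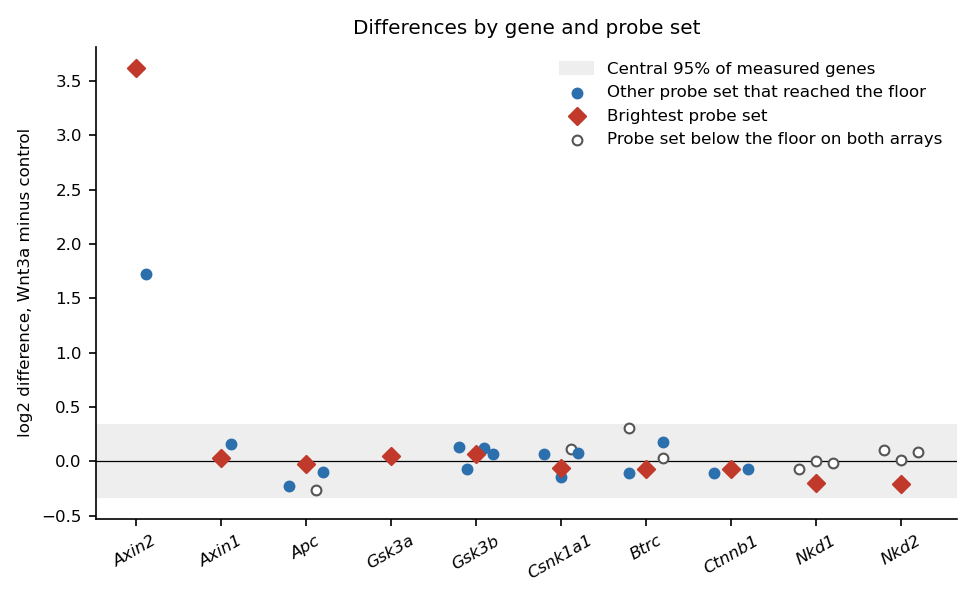
The log2 difference, Wnt3a minus control, is plotted for every probe set of each gene: red diamonds are the brightest, blue points other probe sets that reached the floor and open points those below it on both arrays. Both Axin2 points lie above the grey band, which spans the central 95% of measured genes from -0.33 to 0.33, and all other points lie inside it.

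Beside Axin2, the brightest probe sets of the 9 other genes spanned 1.02-fold to 1.15-fold in size as deposited, and 7 of the 9 differed by under 0.1 on the log2 scale, against 56.4% of all measured genes. Under spike-in scaling 2 of the 9 differed by under 0.1, against 22.3% of all measured genes. As deposited, 3 of the 9 were positive and 6 negative, where 47.3% of measured genes were positive and 51.2% negative. Under spike-in scaling 7 of the 9 were positive, against 90.1% of all measured genes, and only Nkd1 and Nkd2 stayed negative. The median of the 9 was -0.064, against -0.0057 over all measured genes. Over probe sets, 26 of the 36 were measured and 24 of these belonged to genes other than Axin2, with 11 positive, 13 negative and none at 1.5-fold. Among all measured probe sets 46.3% were positive and 52.2% negative, and 1.19% reached 1.5-fold in either direction. These 24 ran from -0.23 to 0.17 with a median of -0.044, and the 10 unmeasured ones from -0.26 to 0.30. Several probe sets share a source sequence, as both of Axin1 do, and the 36 come from 28 such sequences.

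**Figure D4:**
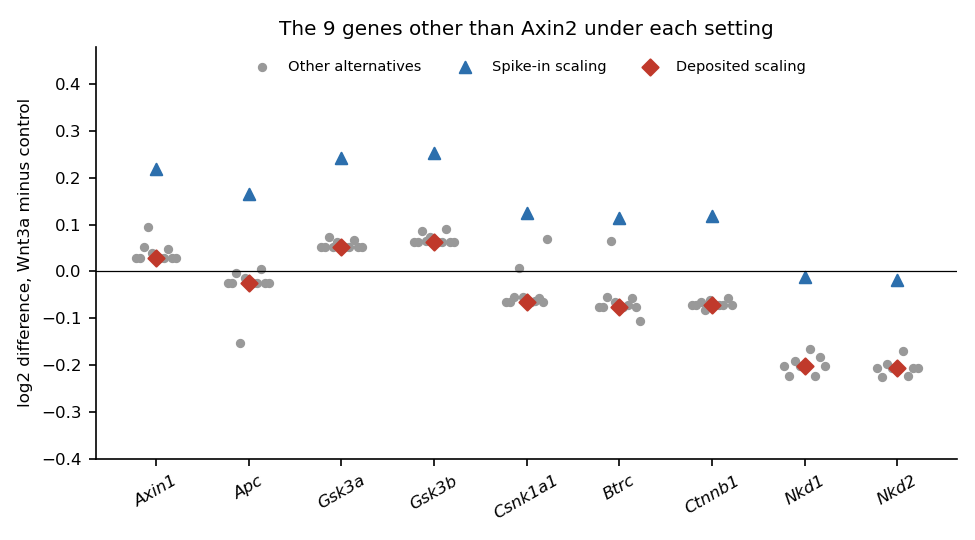
For the 9 genes other than Axin2, the log2 difference, Wnt3a minus control, is plotted under the deposited scaling (red diamonds), under spike-in scaling (blue triangles) and under the other alternatives (grey points). The triangles lie 0.19 above the diamonds and leave only Nkd1 and Nkd2 below 0.

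Partner genes of the complex were likewise close to the same on both arrays, with Dact1, Siah2, Jade1 and Rnf146 the farthest apart as deposited. Of 57 measured partner genes in 5 lists, 33 were positive and 23 negative as deposited, where 47.3% of all measured genes were positive, and their median was 0.018. None of the 57 reached 1.5-fold as deposited, where 0.886% of all measured genes were that much higher and 0.342% lower, so the count is near the background. Under spike-in scaling 55 of the 57 were positive, with 90.1% of all measured genes. Dact1 and Siah2 then passed 1.5-fold, where 210 of 11397 measured genes were that much higher and 17 lower. Dact1, which encodes a Dishevelled-binding regulator, was at 7.67 with Wnt3a and 7.13 in the control, a 1.46-fold difference (0.54, on 1 measured probe set). Siah2, a ubiquitin ligase gene, was at 10.44 with Wnt3a and 9.91 in the control (0.53, and 0.46 on its other measured probe set). Rnf146 encodes the ubiquitin ligase that takes tankyrase-modified Axin to degradation, and it was at 10.32 with Wnt3a and 10.63 in the control (-0.32, but 0.0045 at the highest of its 3 measured probe sets). Jade1, whose human protein is reported to act in β-catenin ubiquitination, was at 8.47 with Wnt3a and 8.78 in the control (-0.32, negative on all 4 measured probe sets). On the brightest probe sets these last 2 differences stay negative with 0.19 added. The highest Jade1 probe set (-0.16) then turns positive.

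The 18 measured kinase and phosphatase genes had 13 positive and 5 negative differences, with a median of 0.035. The 4 largest included the phosphatase 2A subunit genes Ppp2r5d (0.11), Ppp2r1b (0.11) and Ppp2r2a (0.099, but -0.14 at the lowest of 3 probe sets). The casein kinase 2 gene Csnk2a2 completed them, at -0.10, and at -0.20 on its lowest measured probe set. Under spike-in scaling the -0.10 turns positive and the -0.20 stays negative. In the ubiquitin ligase and deubiquitinase list, 3 of 9 were positive and 6 negative, with a median of -0.064. After Jade1 came Cacybp (-0.11), Usp9x (-0.11) and the β-TrCP partner gene Skp1 (-0.10), all 3 positive under spike-in scaling on these probe sets. The lowest measured probe sets of Usp9x (-0.32) and Skp1 (-0.21) stay negative there. Genes that set Axin stability gave 3 positive and 3 negative differences, and beyond Siah2 and Rnf146 the tankyrase gene Tnks2 was at -0.090 and the deubiquitinase gene Usp34 at -0.035, both positive under spike-in scaling. Scaffold relatives and upstream relays gave 7 positive and 4 negative differences among 12, with a median of 0.051. After Dact1 these were led by Frat2, a GSK3-binding inhibitor gene (-0.16), the Dishevelled-binding gene Ccdc88c (-0.15) and Amer1, an Apc-binding scaffold gene (-0.11), all of which turn positive under spike-in scaling. The 12 nuclear partners of β-catenin gave 7 positive and 5 negative differences, with Ep300 (0.13) and Crebbp (0.088, and up to 0.48 on another probe set), both histone acetyltransferase genes, Bcl9l, a coactivator gene (-0.10, positive under spike-in scaling), and Smarca4, a chromatin remodeller gene (0.081).

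**Figure D5:**
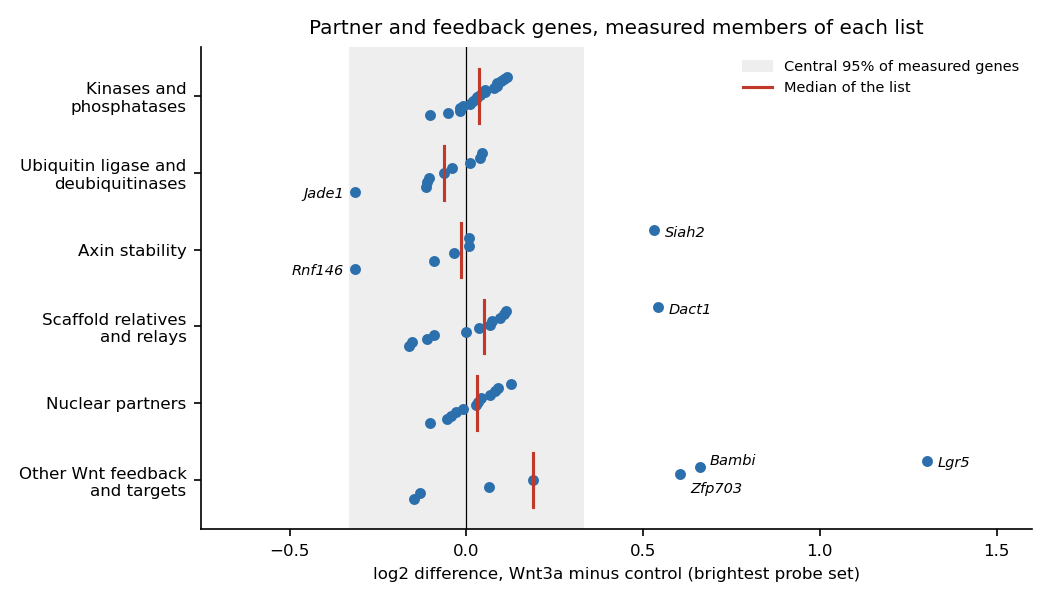
Each blue point is 1 measured gene of 6 lists, with its log2 difference, Wnt3a minus control, on the horizontal axis, red bars at the list medians and the central 95% of measured genes in grey. Dact1, Siah2, Bambi, Zfp703 and Lgr5 lie right of the grey band, and the rest lie in it (under spike-in scaling all points and bars move right by 0.19).

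Other feedback and target genes of the pathway gave a mixed picture beside Axin2 as deposited. Of 14 such genes with a probe set, 7 were measured, 5 of them positive and 2 negative, with a median of 0.19. Among all measured genes 47.3% were positive and 51.2% negative. Of the 7, 3 were at least 1.5-fold higher and 0 that much lower, against 0.886% and 0.342% of all measured genes. Lgr5, an R-spondin receptor gene, was at 6.89 with Wnt3a and 5.58 in the control, below the floor, so it is at least 1.85-fold higher. Next came the decoy receptor gene Bambi (0.66), the repressor gene Zfp703 (0.60, but 0.11 on its other measured probe set) and Znrf3, which encodes a ligase that removes Frizzled receptors (0.19). The 2 negative genes were Lef1 (-0.13) and the cyclin gene Ccnd1 (-0.15, and negative on all 3 measured probe sets), both positive under spike-in scaling. All 7 were thus positive under that scaling, as were 90.1% of all measured genes. Sp5, a transcription factor gene widely reported as a Wnt target, lay below the floor on both arrays, at 4.95 with Wnt3a and 4.92 in the control.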

How the data were processed

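RNA was compared between 2 arrays, 1 with Wnt3a and 1 control. The label on the cRNA was biotin, attached with an Affymetrix 3′ kit, per the labels' protocols. The deposited values are 1 intensity per probe set and array, on a linear scale (7.07 to 36604 with Wnt3a, 7.09 to 37075 in the control). RMA, affy and limma are named, per the submitters' processing notes. Not given in the sources used here were their versions and settings, how a linear scale was reached, and the genome build. Adding 1 before the logarithm makes differences of dim probe sets somewhat smaller.

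Gene comparisons left out 64 control probe sets, and the platform annotation named the genes. The members, the gene lists and the alternatives were chosen with earlier results of these data known. Named genes are all members, the 4 largest differences per list, the 3 genes nearest to Axin2, and Myod1, Pax7 and Myf5. Chosen after their values were seen were Scgb1a1, Sftpc, Sftpb, Vcam1, Myog, Sp5, Lef1 and Ccnd1. No test was run, since 1 array per group allows none. Alternatives were pseudocounts of 0 and 16, other floors, raising values to the floor, probe set choice, 4 scalings (loess with a span of 0.3, median, quantile, spike-in) and other fold thresholds. The procedure was tested on simulated data, in Python 3.11.15 with pandas 2.3.3, numpy 2.4.6 and, for loess, statsmodels 0.14.6.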

Additional observations from a re-analysis of the deposited data

How the results depend on the processing

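No paired analysis was possible because each group has 1 array. Over 12 alternative settings of values and filters, Axin2 stayed positive, between 2.67 and 3.80, and remained the only member past 2-fold in each, also at thresholds of 1.5-fold and 3-fold. Its difference was 2.67 as the mean of its probe sets, 3.43 with a pseudocount of 16 and 3.80 under spike-in scaling. Spike-in scaling moved the others to 0.22 for Axin1, 0.16 for Apc, 0.24 for Gsk3a, 0.25 for Gsk3b, 0.13 for Csnk1a1, 0.11 for Btrc, 0.12 for Ctnnb1, -0.013 for Nkd1 and -0.018 for Nkd2, and the partner median to 0.20. As the mean of all probe sets Apc was at -0.15 and Btrc at 0.065, and without probe sets ending in _s_at, _x_at or _a_at Csnk1a1 was at 0.069. That last setting left no Ctnnb1 probe set, a floor of 8 left out Nkd1 and Nkd2, and so did the mean of probe sets, so these have no value there. Apart from these, every member value moved by less than 0.12, the pooled SD between probe sets of a gene, which is no replicate error. The counts of measured genes, 29 higher and 7 lower at 2-fold, became 101 and 39 at 1.5-fold, 17 and 1 at 3-fold and 49 and 1 under spike-in scaling, and the 7 became 4 both with a pseudocount of 16 and as means of probe sets. Where 1 array lay below the floor, as for Nkd1, the dimmer Axin2 probe set and Lgr5, the fold is only a lower bound. That of Nkd1 holds as deposited but not under spike-in scaling.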
